A study of Homo sapiens with 2 samples.

Results

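The nuclear-encoded genes of the mitochondrial respiratory chain and ATP synthase were followed in A549 cells that overexpressed miR-130b. A549 is an established human lung adenocarcinoma line. The genes were taken by symbol: those beginning with NDUFA, NDUFB, NDUFC, NDUFS, NDUFV, UQCR or ATP5, the SDHA to SDHD genes, CYC1, and COX4 to COX8 with their suffixes, without NDUFAF assembly factors and pseudogenes. This gave 81 of 18417 named genes, measured by 88 probe sets that carried 1 symbol each. They were 35 genes of complex I, 3 of complex II, 8 of complex III, 17 of complex IV and 18 of complex V. Of the 81, 4 met the symbol rule without being subunits of a complex: the divergent transcript NDUFV1-DT, the supercomplex factor COX7A2L, the ATP synthase inhibitor ATP5IF1 and the ATP5MG paralogue ATP5MGL.

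The study held 2 arrays. The first group was A549 cells overexpressing miR-130b and the second was A549 cells transfected with an empty vector, with 1 array each. In both groups the RNA was what an antibody against Argonaute2 (Ago2) pulled down, so each array reads the RNA held in or carried along with the microRNA silencing complex. The labels name neither the vector of the microRNA nor the time after transfection. The log2 value of each probe set was averaged per gene, and a difference is the miR-130b value minus the empty-vector value. A single array on each side leaves no replicate error to test against, and every difference below describes these arrays only. RNA before precipitation and control precipitates were not analysed here, so the amount of an mRNA and its share in the Ago2 precipitate cannot be told apart, nor can fewer cells and less RNA per cell.

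The respiratory chain moves electrons from NADH, through complex I, or from succinate, through complex II, to ubiquinone, then through complex III and cytochrome c to complex IV, which reduces oxygen. Complexes I, III and IV pump protons across the inner mitochondrial membrane, and complex V, the ATP synthase, uses the gradient to make ATP. Most subunits are encoded in the nucleus and imported, while a small set of core subunits is encoded in mitochondrial DNA. The nuclear genes are widely expressed housekeeping genes, and several complex IV subunits have additional isoforms made in particular tissues.

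The overexpressed microRNA has 2 mature arms, shown because the seed in capitals (bases 2 to 8) is what a microRNA uses to pick its targets. Both sequences are from RefSeq (GRCh38.p14) and lie on the plus strand of chromosome 22, the 5p arm at chr22:21653316-21653336 and the 3p arm at chr22:21653354-21653375.
hsa-miR-130b-5p: aCUCUUUCccuguugcacuac
hsa-miR-130b-3p: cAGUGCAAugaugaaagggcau
MIR130B, the probe set of the microRNA's own gene, stood at 12.64 on the miR-130b array and at 6.66 on the empty-vector array, in the order the labels give. The empty-vector value lies below the median of all probe sets on that array (7.77) and was not shown to be above background, so no fold is given. Of the 5 epithelial marker genes of the check on cell type, 4 passed the filter on low values (KRT8, KRT18, KRT19 and CDH1), while 0 of 4 leukocyte, 0 of 3 endothelial and 0 of 4 fibroblast markers did. EPCAM was the epithelial marker below the filter.

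The respiratory chain genes were close to equal on the arrays. Genes were kept for the comparison if their mean level reached 8.64, the midpoint of the named genes. That filter passed 9209 genes, among them 63 of the 81 respiratory chain genes, and 18 lay below it. The 63 ran from 8.51 to 13.52 on the miR-130b array, with a median of 10.36, and from 8.71 to 13.58 on the empty-vector array, with a median of 10.44. Of the 63, 24 were higher with miR-130b, where 51.5% of all kept genes were higher, and 39 were lower, where 48.4% were lower; after quantile normalization the split was 27 higher and 36 lower. Their median difference was -0.047, beside 0.010 for all kept genes. None of the 63 was 2-fold or even 1.5-fold different in either direction. Over all kept genes 1.32% had a 2-fold or larger increase, 1.60% a 2-fold or larger decrease, 5.04% an increase of 1.5-fold or more and 5.87% a decrease of that size.

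The spread of the 63 differences was smaller than that of all kept genes. Of them, 60 were within 1.2-fold (a log2 difference under 0.26), against 62.0% of all kept genes. An increase of 1.2-fold or more was seen in 0 of the 63 (18.5% of all kept genes). A decrease of that size was seen in 3 (19.5% of all kept genes), which were COX7B (1.37-fold), NDUFV3 (1.22-fold) and COX7A2L (1.21-fold). Near that threshold COX7A2L was at -0.24 after quantile normalization, which left 2, and NDUFB9 at -0.27 after centring on the median difference, which made 4. Their middle 50% spanned 0.16 log2 units, beside 0.39 for all kept genes. Some related lists, described further on, were also narrow by that span: it was 0.17 in cytosolic ribosomal proteins, 0.18 in assembly factors and 0.23 in mitochondrial ribosomal proteins. It was 0.35 in the nuclear regulators. Within 1.2-fold were 88.2% of the kept assembly factors and 84.1% of the kept mitochondrial ribosomal proteins. The same share was 88.2% in the citrate cycle and pyruvate dehydrogenase genes and 75% in genes that maintain and transcribe mitochondrial DNA. In the nuclear regulators it was 54.5%. That share was 70.6% in cytosolic ribosomal proteins and 70.8% in the electron carrier list, nearer to the 62.0% of all kept genes. A total of 50 of the 63 (79.4%) differed by less than 0.16, the pooled SD between different probe sets of 1 gene on these arrays, as did 43.0% of all kept genes. That SD is a property of the probes and says nothing of how cultures or precipitations vary. Among the genes at or above the 75th percentile of expression, the middle 50% of the differences spanned 0.16 in the 34 respiratory chain genes and 0.36 in all 4605 genes. Across the kept respiratory chain genes the mean level and the difference had a Pearson's r of 0.088 (63 genes on the same arrays).

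**Figure D1:**
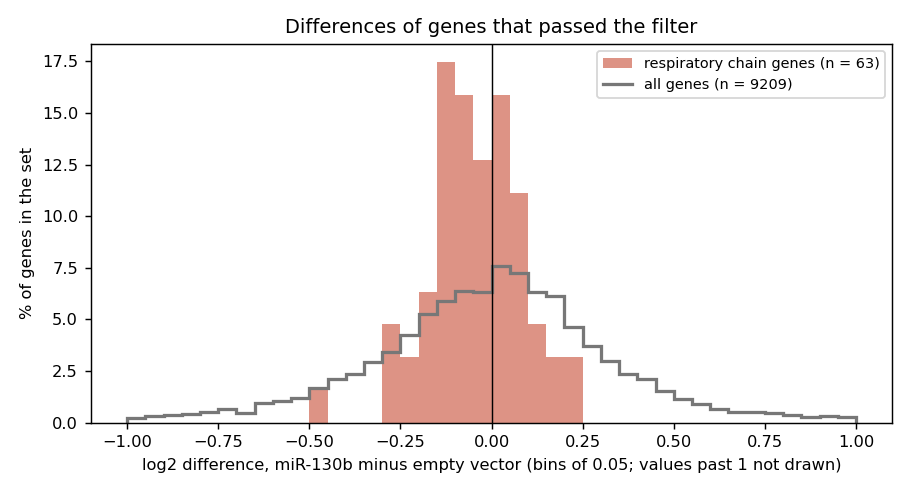
Share of genes (%) in bins of 0.05 of the log2 difference, miR-130b minus empty vector, for the 63 respiratory chain genes (filled) and all 9209 genes that passed the filter (outline). The respiratory chain genes lie between -0.45 and 0.22, inside the wider distribution of all genes.

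Complex I, the NADH dehydrogenase, had 28 kept genes, 13 of them higher and 15 lower. Their median difference was -0.028, and its sign was not stable: it was 0.013 after quantile normalization and 0.014 among genes above the 75th percentile of expression. The core subunits of the matrix arm carry the flavin and the iron-sulphur clusters that take electrons from NADH to ubiquinone. All 6 measured passed the filter, 4 higher and 2 lower, and their differences ran from -0.074 to 0.13. NDUFS1, the large iron-sulphur subunit, stood at 11.96 with miR-130b and 11.83 with the empty vector, a difference of 0.13. NDUFV1, which binds NADH and the flavin, stood at 11.56 with miR-130b and 11.54 with the empty vector. NDUFV2, its iron-sulphur partner, was at 10.37 with miR-130b and 10.32 with the empty vector, and NDUFS3 was at 11.25 with miR-130b and 11.15 with the empty vector. NDUFS7 and NDUFS8, which hold the clusters nearest to ubiquinone, differed by -0.060 and -0.074. The folds of all 6 lay between 0.950 and 1.09.

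Accessory subunits surround that core. The widest differences in complex I lay among them, in both directions. NDUFV3, an accessory subunit of the NADH-oxidising end, was the lowest, at 10.17 with miR-130b and 10.46 with the empty vector (1.22-fold lower). NDUFB9 was at 10.81 with miR-130b and 11.07 with the empty vector, and NDUFB11 at 10.94 with miR-130b and 11.17 with the empty vector. Both belong to the distal membrane arm. On the other side NDUFA2, an accessory subunit of the matrix arm, stood at 10.28 with miR-130b and 10.06 with the empty vector, the largest positive difference of complex I among kept genes (0.22). NDUFB6, in the membrane arm, followed at 0.17 (9.30 with miR-130b, 9.12 with the empty vector). Signs were mixed within both large families. Of the 9 kept NDUFB genes 5 were higher and 4 lower, and of the 10 kept NDUFA genes 4 were higher and 6 lower (5 and 5 after quantile normalization). NDUFAB1, the mitochondrial acyl carrier protein, which also serves fatty acid synthesis, differed by -0.085.

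The 7 complex I genes below the filter were NDUFS4, NDUFA5, NDUFA11, NDUFB1, NDUFA13, NDUFB3 and NDUFV1-DT, with differences from -0.18 to 0.27. NDUFB3, a membrane-arm subunit, had the highest of them, at 7.89 with miR-130b and 7.62 with the empty vector. NDUFS4, which helps to hold the NADH-oxidising end in place, was below the filter because its probe sets disagreed in level. The brighter had a mean that passed it and a difference of -0.20, and the dimmer stood at 4.87 with miR-130b and 5.02 with the empty vector. The dimmer differed by -0.15, so both had the same sign.

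**Figure D2:**
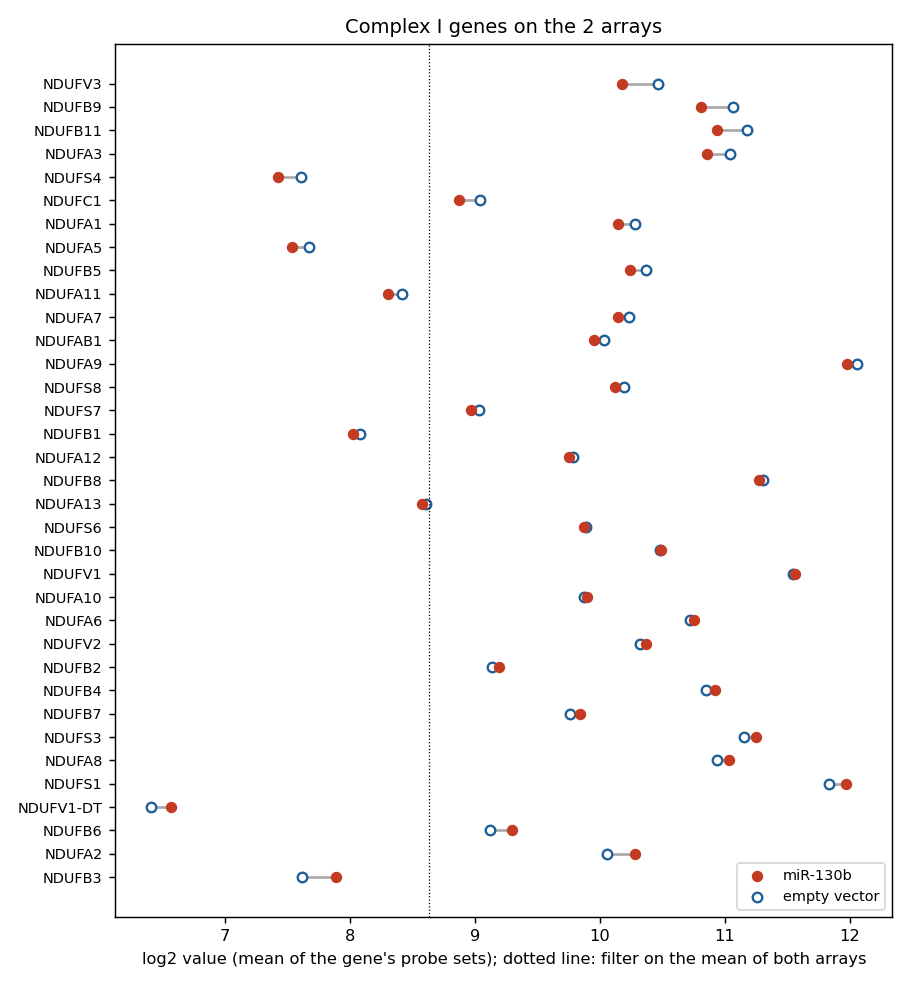
Log2 values of the 35 complex I genes (rows, ordered by their difference) on the miR-130b array (filled points) and the empty-vector array (open points); the dotted line is the filter at 8.64. The pairs nearly coincide, with the widest gaps at NDUFV3 (-0.29) at the top and NDUFB3 (0.27) at the bottom.

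Complex II, succinate dehydrogenase, links the citrate cycle to the chain and is encoded in the nucleus alone. Its 3 measured genes all passed the filter. SDHA, the flavoprotein that oxidises succinate, stood at 12.65 with miR-130b and 12.46 with the empty vector, a difference of 0.20. The membrane anchors differed in sign, with SDHC at 11.42 with miR-130b and 11.39 with the empty vector (0.035) and SDHD at 10.45 with miR-130b and 10.57 with the empty vector (-0.12). The SDHC value joins probe sets at 0.085 and -0.014, and the median of the complex, 0.035, was -0.014 when the brightest probe set stood for each gene. The SDHD probe sets were at -0.11 and -0.14.

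Complex III, ubiquinol-cytochrome c reductase, had 6 kept genes of 8. Of these 2 were higher and 4 lower, and the median difference was -0.034. CYC1, the cytochrome c1 that hands electrons to cytochrome c, stood at 11.36 with miR-130b and 11.38 with the empty vector. The large core proteins UQCRC1 and UQCRC2 differed by -0.13 and -0.047. UQCRC1 was at 10.31 with miR-130b and 10.43 with the empty vector, and UQCRC2 at 12.70 with miR-130b and 12.74 with the empty vector. Among the small subunits UQCRQ was the lowest of the complex, at 9.74 with miR-130b and 9.90 with the empty vector (-0.15). UQCR11, at 0.064, and UQCR10, at 0.010, were the 2 that were higher. Below the filter, UQCRB differed by 0.069 and UQCRH by -0.091.

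Complex IV, cytochrome c oxidase, had the lowest median of the 5 complexes. Of its 12 kept genes 10 were lower with miR-130b and 2 higher (9 and 3 after quantile or loess normalization). The share that was lower was 83.3%, beside 48.4% of all kept genes (45.1% after quantile normalization). A difference between these shares was not tested. The median difference of complex IV was -0.12. All 7 alternative settings left that median negative, from -0.13 to -0.094. The folds behind it are small, and 2 of the 12, COX7B and COX7A2L, were lower by 1.2-fold or more (16.7%, beside 19.5% of all kept genes). The 10 common isoforms, which make up the enzyme in most tissues, were lower in 9 cases (8 after quantile or loess normalization, 10 after centring on the median difference), with a median of -0.12. That grouping was made after the values were seen. COX7B, a small subunit needed for assembly of the enzyme, was at 8.51 with miR-130b and 8.96 with the empty vector, 1.37-fold lower and the largest difference of all 63. Its mean, 8.74, lies just above the filter. COX7A2, a small membrane subunit, was at 9.28 with miR-130b and 9.53 with the empty vector, 1.18-fold lower. COX5B, the zinc-binding subunit on the matrix side, was at 11.09 with miR-130b and 11.26 with the empty vector.

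The next common isoforms differed by nearly the same amount. COX6A1 stood at 12.53 with miR-130b and 12.66 with the empty vector, and its probe sets both differed by -0.14. COX5A, also on the matrix side, was at 11.94 with miR-130b and 12.08 with the empty vector. COX4I1, the largest nuclear-encoded subunit and a regulatory one, was at 10.33 with miR-130b and 10.44 with the empty vector. COX7C differed by -0.11 and COX6C by -0.094, while COX8A (-0.0038) and COX6B1 (0.0071) were nearly equal on both arrays. The supercomplex factor COX7A2L, which helps complex III and complex IV to associate, was at 9.68 with miR-130b and 9.95 with the empty vector, 1.21-fold lower (less than 1.2-fold after quantile normalization).

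The 6 tissue-restricted isoforms of complex IV all had positive differences, also after centring, quantile and loess normalization, and 5 of them were below the filter. COX6A2, a heart and skeletal muscle isoform, was the 1 that passed, at 8.94 with miR-130b and 8.71 with the empty vector (0.22). COX7A1, its counterpart for another subunit in the same tissues, was at 7.09 with miR-130b and 6.92 with the empty vector. COX4I2, a lung isoform, was at 7.30 with miR-130b and 7.17 with the empty vector. The testis isoforms COX6B2, COX7B2 and COX8C differed by 0.22, 0.088 and 0.36, and COX8C stood at 6.36 with miR-130b and 6.01 with the empty vector. Each of these genes was thus higher with miR-130b, whereas its common counterpart (COX6A1, COX7A2, COX4I1, COX7B and COX8A) was lower, with COX6B1 as the exception. COX8A was higher after quantile and loess normalization and COX6B1 lower after centring, so neither has a settled sign. Genes below the filter were shifted upward as a whole: over all 9208 of them the median difference was 0.081 and 65.6% were higher. Of 4 measured striated muscle markers ACTA1 passed the filter, and the summed log2 values of the 4 were 30.7 with miR-130b and 30.2 with the empty vector; their part in the COX6A2 and COX7A1 values was not tested.

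**Figure D3:**
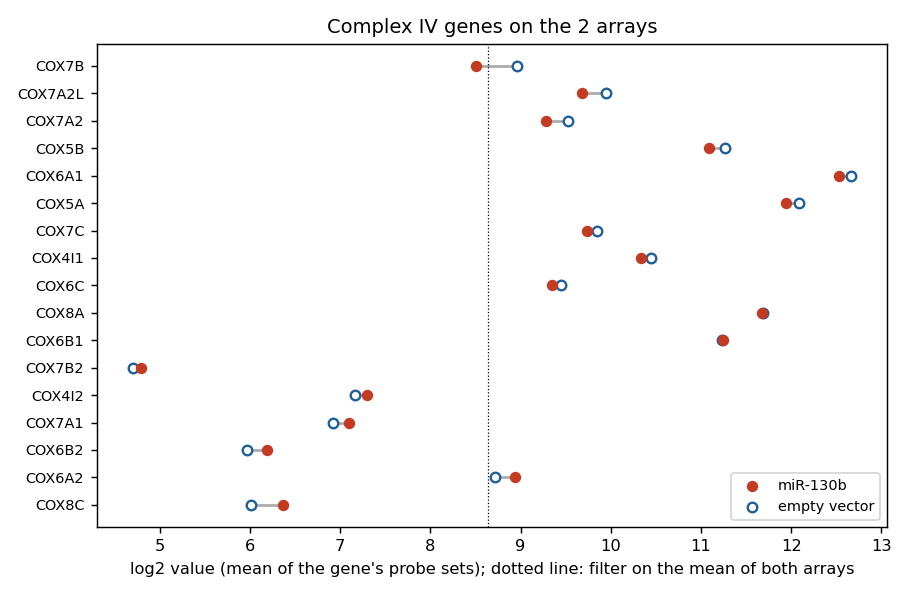
Log2 values of the 17 complex IV genes (rows, ordered by their difference) on the miR-130b array (filled points) and the empty-vector array (open points); the dotted line is the filter at 8.64. The upper 10 genes, from COX7B to COX8A, have the miR-130b value on the lower side (COX8A not after quantile or loess normalization), and the tissue-restricted isoforms at the bottom have it on the higher side.

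Complex V had 14 kept genes of 18, of which 5 were higher and 9 lower. The median difference was -0.044, and the range, from -0.12 to 0.11, was narrower than those of complexes I and IV. The catalytic head was nearly equal on both arrays. ATP5F1B, the catalytic beta subunit, stood at 13.52 with miR-130b and 13.58 with the empty vector, and ATP5F1A, the alpha subunit beside it, at 12.40 with miR-130b and 12.36 with the empty vector. ATP5F1C, the rotating central stalk, was at 12.21 with miR-130b and 12.24 with the empty vector, and ATP5F1D differed by 0.022. The proton-carrying c-ring is built from a single mature protein that several genes encode. Of these ATP5MC1, at 13.30 with miR-130b and 13.42 with the empty vector, had the lowest difference of the complex (-0.12), ATP5MC2 differed by -0.052, and ATP5MC3, below the filter, by 0.075.

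The peripheral stalk, which holds the head against the turning rotor, had ATP5PO at -0.10, ATP5PD at -0.061 and ATP5PF at 0.033, with ATP5PB (0.012) below the filter. Of the small membrane subunits at the dimer interface, ATP5MF (11.17 with miR-130b, 11.05 with the empty vector) and ATP5MG (11.10 with miR-130b, 11.00 with the empty vector) were higher. ATP5ME (-0.036), ATP5MJ (-0.086) and ATP5MK (-0.11) were lower. ATP5IF1, the inhibitor that blocks ATP hydrolysis by the enzyme when the proton gradient collapses, was below the filter, at 8.46 with miR-130b and 8.08 with the empty vector. Its difference of 0.39 was the largest positive one among all 81 genes. ATP5MGL, also below the filter, differed by -0.23.

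**Figure D4:**
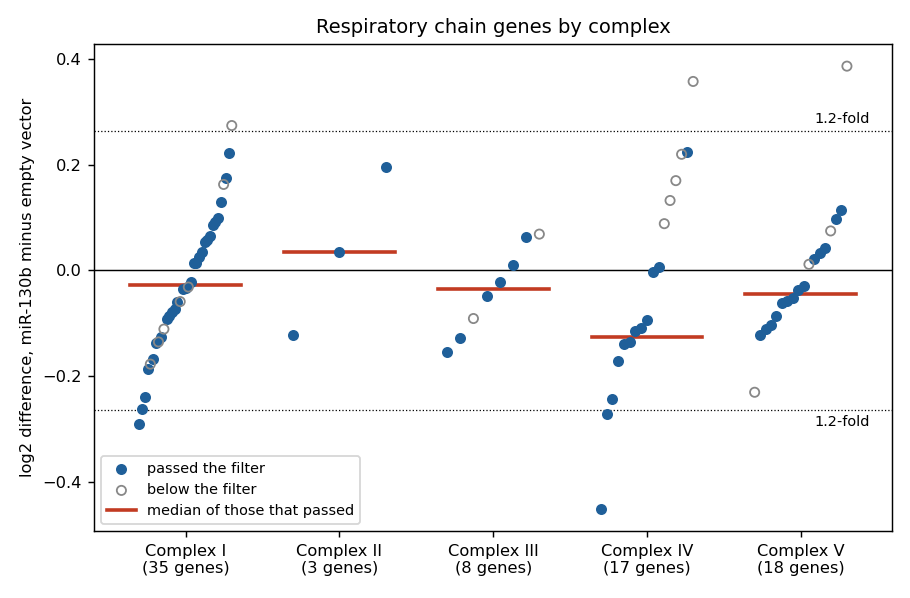
Log2 difference, miR-130b minus empty vector, of each of the 81 genes by complex; filled points passed the filter, open points did not, red lines are medians of the filled points, and dotted lines mark 1.2-fold. COX7B, NDUFV3 and COX7A2L are the filled points beyond the lower dotted line (COX7A2L not after quantile normalization), and the median of complex IV (-0.12) is the lowest of the 5.

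A further 6 probe sets carried a respiratory chain symbol together with other symbols, not counting those that name only a readthrough locus, and they entered no gene-level value. Their differences ran from -0.45 to 0.12, with 4 higher and 2 lower. The lowest was the probe set of ATP5F1E, the epsilon subunit of the ATP synthase head, shared with a readthrough locus, at 8.67 with miR-130b and 9.12 with the empty vector. Its pseudogene ATP5F1EP2, left out by the rule, had the same sign, at 9.62 with miR-130b and 9.97 with the empty vector. NDUFS5 and NDUFC2 are complex I accessory subunits. The probe set that NDUFS5 shares with SNORA70, DNASE1L1 and the cytosolic ribosomal protein gene RPL10 differed by 0.076, so this value cannot be credited to NDUFS5. The probe set that NDUFC2 shares with a readthrough locus differed by 0.0096. The probe sets that SDHA shares with its pseudogenes differed by 0.041 and 0.12, beside 0.20 for the probe set of SDHA alone. Nuclear subunits have many processed pseudogenes with near-identical sequence, and the share of such signal in the single-symbol probe sets was not tested.

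The promoters of these genes are known to be read by NRF1, by the ETS factor GABPA and by YY1, which coordinate respiratory genes with each other. RefSeq promoters (GRCh38.p14, 250 bases before to 50 after the gene start) matched 68 of the 81 genes by symbol. Motifs were searched on both strands. The NRF1 core, a palindrome spelled in capitals for NDUFB4 below, was in 4 of the 68 (5.88%), in 2.55% of the kept genes' promoters and in 1.36% of all 27305 promoters. The ETS core CCGGAAGT was in 10 of the 68 (14.7%), in 9.77% of the kept genes' promoters and in 4.44% of all. The YY1 core AAGATGGCG was in 7 of the 68 (10.3%), in 4.57% of the kept genes' promoters and in 1.85% of all. The TATA box TATAAA was in 7 of the 68 (10.3%), in 5.23% of the kept genes' promoters and in 3264 of all 27305 (11.95%), a higher share than among the 68. The CCAAT box, CCAAT, was in 24 of the 68 (35.3%) and in 35.7% of all. None of these motifs contains another, and a promoter with several was counted under each. A match is a description of letters and not a site. Of the genes with the ETS core 8 passed the filter, 6 of them lower (COX8A among them), of those with the YY1 core 6 passed, 4 of them lower, and of those with the NRF1 core 4 passed, 2 of them lower. Among all kept members 61.9% were lower and among all kept genes 48.4%, and groups this small cannot be set apart from those shares.

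Windows around a match are shown for genes of 4 complexes whose differences had either sign, with the motif in capitals and read in the direction of the gene.
NDUFB4, NRF1 core, chr3:120596162-120596201, plus strand: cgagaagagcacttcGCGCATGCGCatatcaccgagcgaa
NDUFS1, ETS core on the opposite strand, chr2:206159580-206159617, minus strand: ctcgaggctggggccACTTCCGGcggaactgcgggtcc
UQCRQ, ETS core, chr5:132866573-132866610, plus strand: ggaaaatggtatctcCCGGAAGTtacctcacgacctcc
COX5B, ETS core, chr2:97646010-97646047, plus strand: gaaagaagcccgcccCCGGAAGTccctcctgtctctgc
ATP5PF, YY1 core, chr21:25735088-25735126, minus strand: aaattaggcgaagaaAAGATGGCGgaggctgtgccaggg
NDUFS1 (0.13) and NDUFB4 (0.066) were higher with miR-130b, ATP5PF was at 0.033, and COX5B (-0.17) and UQCRQ (-0.15) were lower, so genes with the ETS core lay on both sides of 0.

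Genes that work with the complexes were read in the same way. Assembly factors insert cofactors and join subunits. Of 54 listed, 47 were measured and 34 passed the filter. Of the 34, 10 were higher and 24 lower (14 and 20 after quantile normalization), with a median of -0.094. The share that was lower was 70.6%, beside 48.4% of all kept genes. A decrease of 1.2-fold or more was seen in 4 of the 34 (11.8%, beside 19.5% of all kept genes). An increase of that size was seen in 0 (18.5% of all kept genes). SURF1, a complex IV assembly factor, was the lowest, at 9.14 with miR-130b and 9.47 with the empty vector, followed by the complex I factor NDUFAF1 at -0.32. NDUFAF7 and NDUFAF5, which modify complex I subunits, were the highest, both at 0.25. The list of electron carriers, ubiquinone synthesis and nucleotide exchange had 10 higher and 14 lower of 24 kept genes, with a median of -0.044. COQ8B (-0.45) and COQ5 (-0.44), both of ubiquinone synthesis, were its lowest. Decreases of 1.2-fold or more were seen in 5 genes (20.8%, near the 19.5% of all kept genes). Increases of that size were seen in 2 of the 24, beside 18.5% of all kept genes. These 2 were PDSS1, which starts the ubiquinone side chain, at 10.71 with miR-130b and 10.32 with the empty vector, and ETFDH, which feeds in electrons from fatty acid oxidation, at 0.32.

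Citrate cycle and pyruvate dehydrogenase genes had 10 higher (58.8%, near the 51.5% of all kept genes) and 7 lower of 17 kept, and a median of 0.10. IDH2, mitochondrial isocitrate dehydrogenase, was at 10.66 with miR-130b and 10.24 with the empty vector, and PDHX, a pyruvate dehydrogenase component, differed by 0.36. The succinyl-CoA ligase subunits SUCLG1 (-0.24) and SUCLG2 (-0.23) were the lowest. Genes that maintain and transcribe mitochondrial DNA were split, with 5 higher and 7 lower of 12 kept (7 and 5 after quantile normalization) and a median of -0.0078. Within them TFAM, which packs and transcribes that DNA, was at 10.85 with miR-130b and 10.42 with the empty vector, and the nuclease MGME1 was at 0.49. LONP1, the matrix protease that degrades TFAM, was at 10.84 with miR-130b and 11.40 with the empty vector, and POLG2 was at -0.26.

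The nuclear regulators of respiratory genes had 8 higher and 3 lower of 11 kept genes and a median of 0.16. The share that was higher was 72.7%, beside 51.5% of all kept genes, and a difference between these shares was not tested. The coactivator PPARGC1B stood at 9.39 with miR-130b and 8.85 with the empty vector and PPARD at 8.99 with miR-130b and 8.61 with the empty vector. ESRRA differed by -0.16 and PPARG by -0.74. PPARGC1A, the coactivator best known for driving respiratory genes, stood at 6.33 with miR-130b and 10.07 with the empty vector. Its difference of -3.74 was the lowest of all 18417 named genes. PPARGC1A is outside the counts of this list because the low miR-130b value takes its mean under the filter. That value lies below the median of all probe sets on the miR-130b array (7.77). It was not shown to be above background, so no fold is given. The respiratory chain genes themselves lay within the narrow range given above. A relation between their values and that of PPARGC1A was not tested.

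Mitochondrial ribosomal proteins, which translate the mitochondrial-encoded subunits, had the same number of kept genes (63) and the same split, 24 higher and 39 lower. The share that was lower was 61.9%, beside 48.4% of all kept genes, and the median was -0.036. After quantile normalization 29 were higher and 34 lower. A decrease of 1.2-fold or more was seen in 9 of the 63 (14.3%, beside 19.5% of all kept genes). An increase of that size was seen in 1 (18.5% of all kept genes). MRPS18B (-0.58) and MRPS10 (-0.50) were the lowest and MRPL16 (0.28) and MRPL39 (0.24) the highest. Cytosolic ribosomal proteins had 50 of 51 kept genes lower (46 after quantile normalization), where 48.4% of all kept genes were lower, and a median of -0.17. Of the 51, 15 were lower by 1.2-fold or more (29.4%, beside 19.5% of all kept genes). RPL10A and RPS7 were lowest (both -0.57), with RPL26 at -0.0026 and RPL27A at 0.19. Complex IV, at -0.12, was the complex whose median came closest to that of the cytosolic ribosomal proteins. With 1 array per group the differences between these lists have no test.

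**Figure D5:**
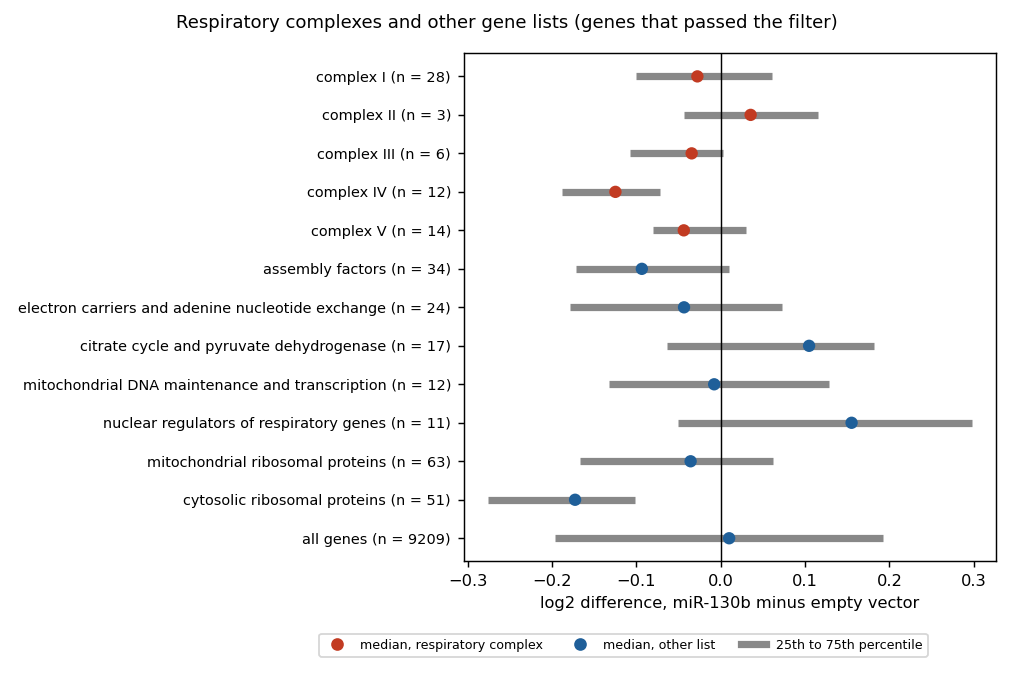
Median (points) and 25th to 75th percentile (bars) of the log2 difference, miR-130b minus empty vector, of the genes that passed the filter in each complex and list. Complex IV lies between the other complexes (-0.044 to 0.035) and the cytosolic ribosomal proteins (-0.17), and the bar of all 9209 genes is the widest drawn.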

How the data were processed

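Whole-transcript cDNA was biotin-labelled for 1 array per sample for a cell line, per the labels' protocols, whose extraction text speaks of excised tissue. The deposited values are log2 values for 33297 probe sets per array, from 1.95 to 14.2; no source used here names the authors' software or normalization, and the unit was taken from the values. The arrays have nearly the same distribution, so a difference is relative to all other probe sets.

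A supplied platform annotation named 21214 probe sets, 19460 with 1 symbol and 1754 with several; 12083 had no name here. Entrez identifiers led to a current symbol for 19429 of the first. Probe sets of a gene were averaged. Of the symbols matching the rule, 2 pseudogenes were left out. The members, lists and alternatives were chosen with earlier results of these data known, and the classes within complexes after the values were seen. Every member could be named. The text gives the 3 highest and 3 lowest per complex, core subunits and isoform pairs, the 2 highest and lowest of every other list, and others by role. The pooled SD between probe sets rests on 356 genes. Summaries were tested on simulated data. Tools were Python 3.11.15, pandas 2.3.3, numpy 2.4.6, R 4.3.3 and limma 3.58.1 (quantile and cyclic loess). The number of arrays limits the precision.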

Additional observations from a re-analysis of the deposited data

How the results depend on the processing

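The alternatives were genes of all levels, genes above the 75th percentile of expression, subtraction of the median difference, quantile or cyclic loess normalization, the brightest probe set of each gene, subunits only and, for the median of all members, the mean. No member was 1.5-fold different under any of the 7 settings, and the interquartile range of the members stayed between 0.15 and 0.18. The median of the members was negative throughout, at -0.031 above the 75th percentile and -0.025 after quantile normalization. Above the 75th percentile, 14 members were higher and 20 lower of the 34 left, and 0 were lower by 1.2-fold or more. In that setting 5 common isoforms of complex IV were lower and the complex I median was 0.014. COX7B, COX7A2L and NDUFV3, lower by 1.2-fold or more in the main setting, have mean levels of 8.74, 9.81 and 10.32, all under that percentile (10.34). Without a filter 3 members were higher by 1.2-fold or more, namely COX8C, ATP5IF1 and NDUFB3, all below the filter. The 1.2-fold threshold was chosen after seeing the data, in place of a planned one that was slightly higher. Of COX7B, COX7A2L and NDUFV3, only COX7B (1.37-fold lower) also passed the planned threshold. After quantile normalization the medians were 0.013 for complex I and -0.024 for complex V, and after cyclic loess -0.015 for both complex I and complex III; the cause was not tested. With the brightest probe set per gene the complex II median was -0.014, because SDHC then rests on its brighter probe set. Counting NDUFA4 with complex IV gave no value among kept genes, because its current symbol, COXFA4, lies outside the rule and its mean below the filter; without a filter the complex IV median was -0.10 with it and -0.094 without it. The ranges for the spread and for the common isoforms of complex IV used alternatives added after seeing the data. No paired analysis was possible because each group had 1 array. The scanner's signal over background was not analysed here, so small differences of dim genes cannot be weighed against it.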

Other observations

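Relatives of complex IV outside the symbol rule were read after their values were seen. COXFA4, the complex IV subunit once named NDUFA4, was below the filter, at 7.98 with miR-130b and 8.25 with the empty vector (-0.27). COXFA4L3, a paralogue that can take its place in the enzyme, was also below the filter. It stood at 7.59 with miR-130b and 8.68 with the empty vector, a difference of -1.09. The miR-130b value lies below the median of all probe sets on that array (7.77) and was not shown to be above background, so no fold is given. Over all named genes without a filter, 1.37% were at least 2-fold lower. Another relative, COXFA4L2, also below the filter, was at 8.31 on both arrays.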
